A study of Homo sapiens with 6 samples.

Results

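Interferon-stimulated genes are the genes that cells transcribe when type I, type II or type III interferon reaches its receptor. A list of 49 such genes was followed here across TEM4-18, TEM2-5 and PC-3 cells. The members were the probe sets whose platform annotation gives exactly 1 gene symbol and whose symbol is on the list. This gave 84 of the 54675 probe sets on the array, for 48 of the 49 genes, and STAT2 was not analysed here. Of the 48 genes, 24 had more than 1 probe set, and each gene was then read from its brightest one. A filter on mean signal over the 6 arrays kept 44 genes for testing. The other 4, BST2, DHX58, TRIM22 and XAF1, had signals of 5.50 to 235 over all their probe sets.

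PC-3 is an established human prostate cancer line that was grown from a bone metastasis. TEM4-18 and TEM2-5 were isolated from PC-3 cells that had migrated through a confluent layer of human lung microvascular endothelial cells, in separate experiments. The design sets both isolates against PC-3 to ask how gene expression differs in cells that have crossed an endothelium. All 3 lines were grown in DMEM/F12 with serum and received no other treatment per the labels. Each line was hybridised to 2 arrays, and each TEM line is a single isolate. Whether a line's arrays hold RNA of separate cultures is not given in the labels, so p-values reflect array-to-array spread only, and that spread may be technical. For TEM2-5 replicate 2, the title was followed, although its source name says replicate 1.

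In the canonical pathway, type I and type III interferons activate receptor-bound kinases, which phosphorylate STAT proteins. These join IRF9 to form ISGF3, a complex that binds the interferon-stimulated response element (ISRE) upstream of its target genes. Type II interferon acts mainly through STAT dimers at a different element, the gamma-activated site (GAS). Many of the induced proteins block viral replication, and others, such as IRF7, IRF9 and the RNA sensor IFIH1, feed back on the pathway itself. Tumour lines differ in how much of this program they transcribe without added interferon.

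The promoters of 7 members are shown because the results below turn on genes that carry the same element and differ in their values. They are drawn from the RefSeq promoter table of assembly GRCh38.p14, which holds 250 bases before and 50 after a gene's start. Each stretch runs 5′ to 3′ on the gene's strand, from 15 bases before the first ISRE match upstream of the start to 15 bases after the last one or to the start itself, whichever comes first. Capitals mark matches to the ISRE letters GAAANNGAAA or their reverse complement TTTCNNTTTC. IFIT1 (chr10:89392492-89392544, plus strand), IFIT3 (chr10:89327826-89327899, plus strand) and IFIT5 (chr10:89414508-89414567, plus strand) are members of 1 gene cluster. IFIH1 (chr2:162318685-162318858, minus strand) and IFI27 (chr14:94110613-94110665, plus strand) had the largest differences between TEM4-18 and PC-3. IFITM1 (chr11:313985-314024, plus strand) and IFITM3 (chr11:320871-320927, minus strand) are neighbours.
IFIT1: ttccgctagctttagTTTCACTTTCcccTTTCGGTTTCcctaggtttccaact
IFIT3: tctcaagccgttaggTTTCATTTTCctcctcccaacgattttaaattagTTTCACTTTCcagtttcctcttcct
IFIT5: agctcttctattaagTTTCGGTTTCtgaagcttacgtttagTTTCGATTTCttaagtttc
IFIH1: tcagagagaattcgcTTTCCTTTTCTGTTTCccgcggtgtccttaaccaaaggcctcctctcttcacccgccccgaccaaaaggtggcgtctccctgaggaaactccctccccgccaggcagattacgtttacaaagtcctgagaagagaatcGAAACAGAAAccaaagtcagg
IFI27: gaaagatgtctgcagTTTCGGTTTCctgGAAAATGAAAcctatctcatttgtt
IFITM1: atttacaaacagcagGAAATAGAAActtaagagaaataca
IFITM3: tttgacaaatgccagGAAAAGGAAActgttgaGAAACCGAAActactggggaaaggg

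The deposited values are MAS5 signals in linear array units. Median signals of the 6 arrays lay between 267 and 317. Log2 signals of the 2 arrays of a line correlated across tested probe sets at 0.979 for TEM4-18, 0.980 for TEM2-5 and 0.976 for PC-3. Fold changes are differences between line means of log2(signal + 51.8), given with the standard error (SE) of the fit. They understate the change of genes with low signals. Tests were limma's moderated test across all 32518 tested probe sets with Benjamini-Hochberg adjustment, and a gene was called at an adjusted p under 0.05. Both TEM lines were set against the same 2 PC-3 arrays. Levels of different genes are not compared, because each probe set has its own response.

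Most of the interferon-stimulated genes that could be tested had lower signals in TEM4-18 than in PC-3. Of the 44, 27 fell, 2 rose and 15 did not pass the test, whereas over all 13557 tested genes 16.1% were called lower and 13.3% higher. The median log2 difference of the 44 genes was -0.86, with a range of -4.76 to 1.08, and the median over all tested genes was -0.04. In TEM2-5, 23 of the 44 fell, 1 rose and 20 did not pass, against a background of 10.1% lower and 9.04% higher. Their median log2 difference was -0.55, the range was -3.18 to 1.01, and the all-gene median was -0.02. In the bulk RNA of a line, fewer cells that transcribe a gene and less RNA per cell cannot be told apart.

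Averaged over the 44 genes, log2 signals relative to the PC-3 mean stood at -1.07 and -1.17 for TEM4-18, -0.53 and -0.80 for TEM2-5, and 0.08 and -0.08 for PC-3. The 3 lines did not overlap in this average, and TEM2-5 replicate 2 lay lower than replicate 1. The filter used the mean over all arrays, so a gene could pass through PC-3 alone. Line means were below the filter for 4 of the tested genes in TEM4-18 (OAS1, RSAD2, IFIH1 and IFI27), for 0 in TEM2-5 and for 0 in PC-3. The counts were not equally firm. In TEM4-18, the number of lower genes stayed between 26 and 29 over the 14 alternative settings, whereas in TEM2-5 it was 14 without TEM2-5 replicate 2 and 15 without PC-3 replicate 1, and 13 without the mean-variance trend of the fit.

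**Figure D1:**
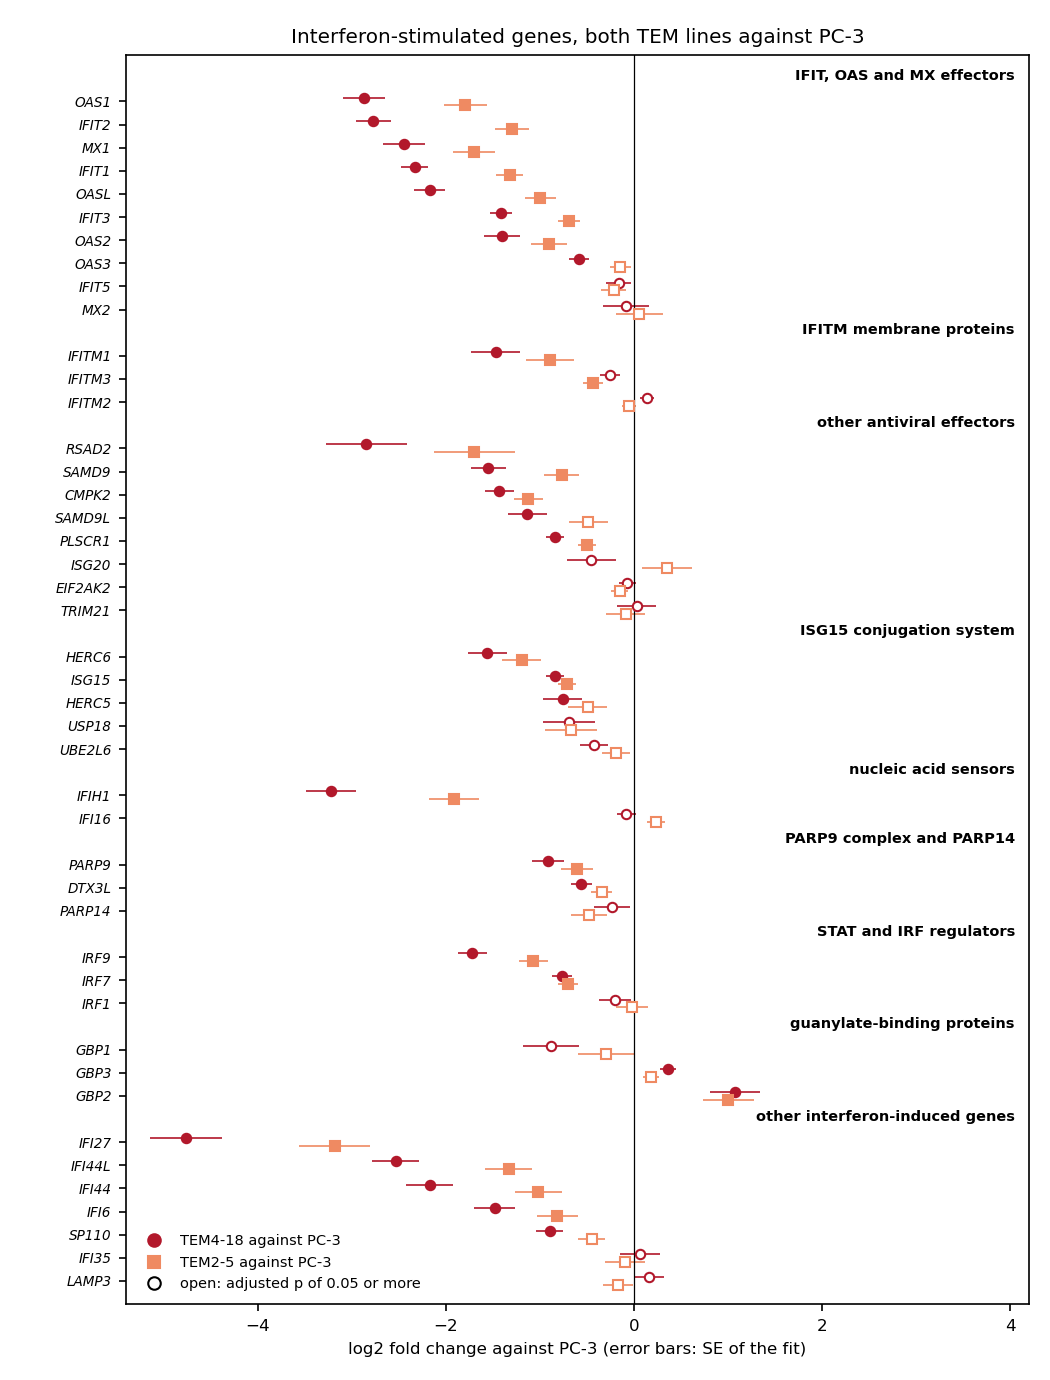
Log2 fold change against PC-3 of the 44 tested interferon-stimulated genes, by role, with TEM4-18 as circles and TEM2-5 as squares; bars are SEs of the fit and open symbols did not pass an adjusted p of 0.05. Values run from -4.76 (IFI27, TEM4-18) to 1.08 (GBP2, TEM4-18), and the rising calls are GBP2 in both lines and GBP3 in TEM4-18.

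The IFIT, OAS and MX proteins act directly on viral RNA or viral nucleocapsids. All 10 of these genes were tested, and 8 fell in TEM4-18 with a median log2 difference of -1.80, while 7 fell in TEM2-5 with a median of -0.95. None of the 10 rose in either line. Over all tested genes, 16.1% were called lower in TEM4-18 and 10.1% in TEM2-5, and these shares also apply to the counts by role below. IFIT1 binds viral RNA that lacks the host's cap methylation and blocks its translation. Its signals were 1165 and 1312 in TEM4-18, 2600.5 and 2483 in TEM2-5 and 7410.3 and 5579 in PC-3. Every TEM array lay below both PC-3 arrays, with TEM4-18 lowest. The mean was 5.24-fold lower in TEM4-18 than in PC-3, and the log2 difference was -2.33 ± 0.14 (adjusted p = 1.57e-06). In TEM2-5 the mean was 2.56-fold lower, at a log2 difference of -1.32 ± 0.14 (adjusted p = 0.000207).

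IFIT2, a partner of IFIT1 and IFIT3 in the same complexes, showed the same order of lines. Its signals were 579.8 and 463 in TEM4-18, 1753 and 1343 in TEM2-5 and 4311 and 3412 in PC-3. No 2 lines overlapped. The log2 difference was -2.77 ± 0.18 (adjusted p = 2.52e-06) in TEM4-18 and -1.29 ± 0.18 (adjusted p = 0.000931) in TEM2-5. IFIT3, which stabilises IFIT1, read 1503 and 1489.8 in TEM4-18, 2639 and 2373 in TEM2-5 and 4206 and 3962 in PC-3, and its replicate arrays lay close together in each line. It fell by smaller amounts than IFIT2, with log2 differences of -1.42 ± 0.12 (adjusted p = 1.15e-05) in TEM4-18 and -0.69 ± 0.12 (adjusted p = 0.0026) in TEM2-5. IFIT5, another RNA-binding member of the family, did not pass the test in either line on its brightest probe set. That probe set read 1894 and 2146 in TEM4-18, 2116 and 1789.8 in TEM2-5 and 2265 and 2261 in PC-3, and both TEM lines lay under PC-3. The log2 difference was -0.16 (95% interval -0.46 to 0.13) in TEM4-18 and -0.21 (95% interval -0.51 to 0.08) in TEM2-5, with intervals not adjusted for multiple tests, so a fall of the size seen for IFIT1 lies outside both intervals. The other IFIT5 probe set read 847 and 1205 in TEM4-18, 1358 and 1522 in TEM2-5 and 1574 and 1426 in PC-3. It was called lower in TEM4-18, at -0.54 ± 0.18 (adjusted p = 0.0469), and not in TEM2-5, at -0.06 ± 0.18 (0.874), so the IFIT5 call in TEM4-18 depended on the probe set.

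OAS1, OAS2 and OAS3 make 2′-5′-linked oligoadenylate that activates RNase L, whereas OASL lacks that activity. OAS1 signals were 157 and 179 in TEM4-18, 422 and 401 in TEM2-5 and 1749 and 1379 in PC-3. The TEM4-18 arrays were the lowest and lay close to the filter level of 178, and the 3 lines did not overlap. On the log2 scale OAS1 differed from PC-3 by -2.87 ± 0.23 (adjusted p = 8.94e-06) in TEM4-18 and -1.79 ± 0.23 (adjusted p = 0.000507) in TEM2-5, where its mean was 3.8-fold lower. OASL read 412 and 466 in TEM4-18, 1169.8 and 953 in TEM2-5 and 2154 and 2163 in PC-3, again with no overlap between lines, and its log2 difference was -2.17 ± 0.17 (adjusted p = 7.01e-06) in TEM4-18 and -1.0 ± 0.17 (adjusted p = 0.00258) in TEM2-5.

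On its brightest probe set OAS2 lay lower in both TEM lines than in PC-3 on every array. It read 636 and 664 in TEM4-18, 1143 and 767 in TEM2-5 and 1892 and 1713 in PC-3, with log2 differences of -1.40 ± 0.19 (adjusted p = 0.000412) in TEM4-18 and -0.91 ± 0.19 (adjusted p = 0.00994) in TEM2-5. The TEM2-5 call of OAS2 was lost without TEM2-5 replicate 2 (adjusted p = 0.0842) or PC-3 replicate 1 (0.057), and without TEM2-5 replicate 2 the log2 difference was -0.63. The other tested OAS2 probe sets were at -1.61 (adjusted p = 0.0016) and -0.32 (0.467) in TEM4-18. In TEM2-5 they were at -0.52 (0.241) and -0.21 (0.689), so the OAS2 calls depended on the probe set. On the probe set at -0.32 the TEM lines overlapped PC-3. OAS3, the member of the family that responds best to long RNA, had the smallest difference of the 4 in TEM4-18 on the brightest probe sets. It read 3047 and 3287 in TEM4-18, 4005 and 4645 in TEM2-5 and 4949 and 4600.4 in PC-3, with a log2 difference of -0.58 ± 0.11 (adjusted p = 0.00298) in TEM4-18, whereas in TEM2-5, whose arrays overlapped PC-3, it was -0.14 (95% interval -0.39 to 0.10) and did not pass (adjusted p = 0.437). The other OAS3 probe set read 427 and 632 in TEM4-18, 432 and 464 in TEM2-5 and 693 and 699.9 in PC-3. It was not called, at -0.39 ± 0.23 (adjusted p = 0.265) in TEM4-18 and -0.58 ± 0.23 (0.119) in TEM2-5. The OAS3 contrast between the TEM lines therefore depended on the probe set.

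MX1, a GTPase that traps nucleocapsids of influenza and other viruses, read 631 and 765 in TEM4-18, 1574 and 904 in TEM2-5 and 4330.3 and 3703 in PC-3. Both TEM lines lay below PC-3, and the TEM2-5 arrays were further apart from each other than those of TEM4-18. The mean was 5.76-fold lower in TEM4-18 and 3.24-fold lower in TEM2-5, with log2 differences of -2.44 ± 0.23 (adjusted p = 2.55e-05) and -1.70 ± 0.23 (adjusted p = 0.00064). MX2, its neighbour on chromosome 21 and a restriction factor for HIV, overlapped in all 3 lines. Its signals were 451 and 490.4 in TEM4-18, 604 and 457 in TEM2-5 and 429 and 588 in PC-3. The log2 difference was -0.09 (95% interval -0.63 to 0.46) in TEM4-18 and 0.06 (95% interval -0.48 to 0.60) in TEM2-5, with adjusted p-values of 0.839 and 0.908.

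**Figure D2:**
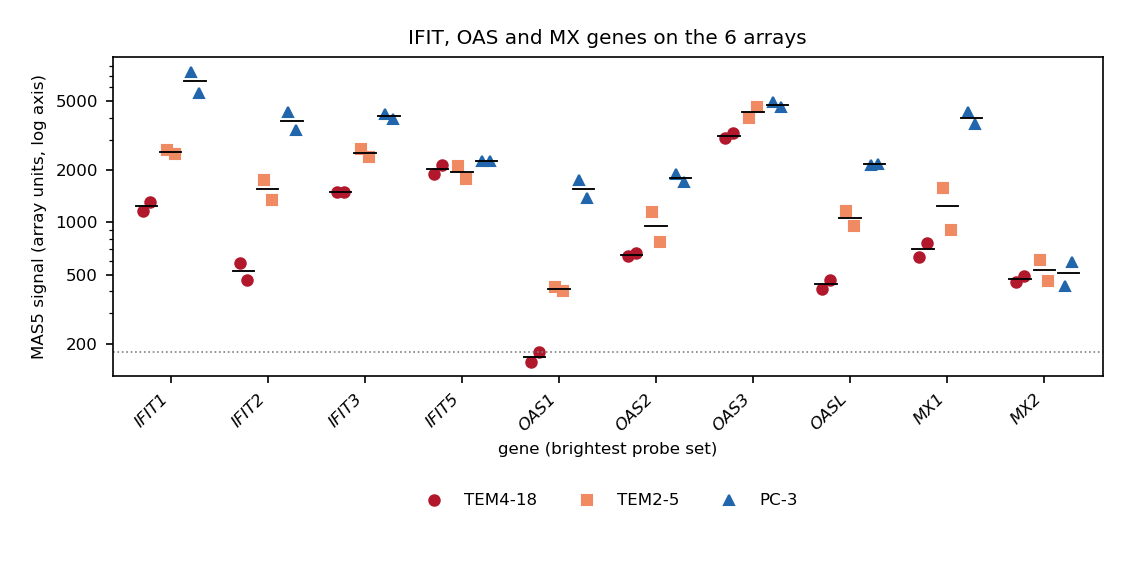
MAS5 signals (array units, log axis) of the 10 IFIT, OAS and MX genes on the 6 arrays, 2 points per line for TEM4-18, TEM2-5 and PC-3, with short bars at the line means; the dotted line is the filter level of 178. IFIT1, IFIT2, IFIT3, OAS1, OAS2, OASL and MX1 are lowest in TEM4-18, intermediate in TEM2-5 and highest in PC-3, while IFIT5, drawn from its brightest probe set, and MX2 differ little.

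The IFITM proteins sit in cell and endosome membranes and hinder the fusion of enveloped viruses. Of the 3, IFITM1 fell in both lines and IFITM3 in TEM2-5. IFITM1 read 1512 and 1285 in TEM4-18, 2925 and 1511 in TEM2-5 and 4651 and 3355 in PC-3, with both TEM4-18 arrays lowest and TEM2-5 replicate 2 near them. The log2 difference was -1.47 ± 0.26 (adjusted p = 0.00195) in TEM4-18 and -0.89 ± 0.26 (adjusted p = 0.0405) in TEM2-5. The TEM2-5 call was lost without TEM2-5 replicate 2 (adjusted p = 0.256) or PC-3 replicate 1 (0.205), and the log2 difference was -1.36 without TEM2-5 replicate 1 and -0.43 without replicate 2.

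IFITM3 read 20286 and 19253 in TEM4-18, 19933 and 15359 in TEM2-5 and 23454 and 23782 in PC-3, with both TEM lines below PC-3. It stood at a log2 difference of -0.26 ± 0.11 (adjusted p = 0.105) in TEM4-18, where it did not pass, and -0.43 ± 0.11 (adjusted p = 0.0194) in TEM2-5. The TEM2-5 call was lost without TEM2-5 replicate 2 (adjusted p = 0.119), PC-3 replicate 1 (0.062) or PC-3 replicate 2 (0.081). Without TEM2-5 replicate 2 the difference was -0.24, and in TEM4-18 the gene was called without TEM2-5 replicate 1 (adjusted p = 0.0264) or replicate 2 (0.0255). IFITM2 read 27942 and 27117 in TEM4-18, 25753 and 22617 in TEM2-5 and 24618 and 25423 in PC-3 and did not pass, with log2 differences of 0.14 in TEM4-18 and -0.05 in TEM2-5. The 3 IFITM genes are related, and IFITM2 and IFITM3 are near-identical copies. The probe sets of all 3 are of types that can match related transcripts, so their signals may be shared between them.

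Of 10 other antiviral effectors, 8 were tested, and 5 fell in TEM4-18 and 4 in TEM2-5. Their median log2 differences were -0.99 and -0.49. RSAD2 encodes viperin, which makes a chain-terminating nucleotide from CTP. It read 139.5 and 27.7 in TEM4-18, 217 and 226 in TEM2-5 and 959 and 727 in PC-3. TEM4-18 replicate 2 was the lowest array, both TEM4-18 arrays were below TEM2-5, and PC-3 was highest. The log2 difference was -2.85 ± 0.43 (adjusted p = 0.00074) in TEM4-18 and -1.70 ± 0.43 (adjusted p = 0.0224) in TEM2-5. With 4 times the constant added before the logarithm, the difference in TEM4-18 was -1.87. The TEM2-5 call was lost without TEM2-5 replicate 1 (adjusted p = 0.0956), TEM2-5 replicate 2 (0.0925), PC-3 replicate 1 (0.134) or PC-3 replicate 2 (0.0714).

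CMPK2, a mitochondrial nucleotide kinase and the neighbour of RSAD2 on chromosome 2, read 776 and 792 in TEM4-18, 1044 and 927 in TEM2-5 and 2049.8 and 2367 in PC-3. All TEM arrays lay under both PC-3 arrays. On the log2 scale it differed from PC-3 by -1.43 ± 0.15 (adjusted p = 6.87e-05) in TEM4-18 and -1.12 ± 0.15 (adjusted p = 0.000727) in TEM2-5. SAMD9, a restriction factor for poxviruses, read 614 and 620.0 in TEM4-18, 1258 and 954 in TEM2-5 and 2159 and 1682 in PC-3. It fell by 3.11-fold in TEM4-18 and 1.74-fold in TEM2-5, with log2 differences of -1.55 ± 0.18 (adjusted p = 0.000154) and -0.77 ± 0.18 (adjusted p = 0.0176). The TEM2-5 call of SAMD9 was lost without TEM2-5 replicate 2 (adjusted p = 0.14) or PC-3 replicate 1 (0.117). Its paralog SAMD9L read 449.9 and 344 in TEM4-18, 655 and 637 in TEM2-5 and 983 and 872 in PC-3, and it passed in TEM4-18 at a log2 difference of -1.13 ± 0.21 (adjusted p = 0.00231) and not in TEM2-5, at -0.49 ± 0.21 (adjusted p = 0.143).

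PLSCR1, a phospholipid scramblase with antiviral activity, read 6335 and 7589 in TEM4-18, 8803 and 8816 in TEM2-5 and 12949 and 11979 in PC-3 and fell in both lines, with log2 differences of -0.84 ± 0.10 (adjusted p = 0.000137) in TEM4-18 and -0.50 ± 0.10 (adjusted p = 0.00667) in TEM2-5. EIF2AK2, the RNA-activated kinase PKR that halts translation, read 5804 and 5578 in TEM4-18, 5219 and 5542 in TEM2-5 and 6081 and 5868 in PC-3 and did not pass. Its log2 difference was -0.07 (95% interval -0.27 to 0.13) in TEM4-18 and -0.15 (95% interval -0.35 to 0.05) in TEM2-5. The other EIF2AK2 probe sets were not called, at -0.28 (adjusted p = 0.0518) and 0.13 (0.597) in TEM4-18. In TEM2-5 they were at -0.24 (0.12) and -0.09 (0.756). TRIM21, a cytosolic antibody receptor, read 1009.7 and 1279 in TEM4-18, 1257 and 865 in TEM2-5 and 988 and 1253 in PC-3, with the lines overlapping and log2 differences of 0.03 and -0.09 in TEM4-18 and TEM2-5. The exonuclease gene ISG20 read 869 and 561 in TEM4-18, 1656 and 957 in TEM2-5 and 1027 and 928 in PC-3 and did not pass, with log2 differences of -0.45 ± 0.26 (adjusted p = 0.249) in TEM4-18 and 0.35 ± 0.26 (adjusted p = 0.421) in TEM2-5. The other ISG20 probe set read 37.6 and 67.3 in TEM4-18, 944 and 379 in TEM2-5 and 68.6 and 208 in PC-3. On that probe set TEM2-5 was above PC-3, at a log2 difference of 1.89 (adjusted p = 0.0411), and TEM4-18 was below TEM2-5, at -2.67 (0.0403), so the 2 probe sets of this gene gave different calls.

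ISG15 is a ubiquitin-like protein that is attached to newly made proteins through UBE2L6 and HERC5 and taken off by USP18. In this system of 5 genes, 3 fell in TEM4-18 and 2 in TEM2-5, against 16.1% and 10.1% of all tested genes. ISG15 read 16081 and 15812 in TEM4-18, 19464 and 15622 in TEM2-5 and 28785 and 28414 in PC-3. The PC-3 arrays lay above all others, and the TEM lines overlapped each other. ISG15 fell in both, at log2 differences of -0.84 ± 0.09 (adjusted p = 0.000104) in TEM4-18 and -0.71 ± 0.09 (adjusted p = 0.000662) in TEM2-5. HERC6, a relative of the ligase HERC5 that is the main ISG15 ligase in mice, read 368 and 468 in TEM4-18, 619.7 and 487 in TEM2-5 and 1253 and 1400.1 in PC-3, with log2 differences of -1.56 ± 0.21 (adjusted p = 0.000319) and -1.19 ± 0.21 (adjusted p = 0.00323) in TEM4-18 and TEM2-5.

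HERC5 read 457 and 506 in TEM4-18, 629 and 551 in TEM2-5 and 762 and 946 in PC-3, with TEM4-18 lowest and TEM2-5 between. It was called in TEM4-18, at a log2 difference of -0.76 ± 0.20 (adjusted p = 0.0197), and not in TEM2-5, at -0.49 ± 0.20 (adjusted p = 0.135). The TEM4-18 call was lost without TEM4-18 replicate 1 (adjusted p = 0.0896), TEM4-18 replicate 2 (0.0521) or PC-3 replicate 2 (0.126). UBE2L6, the conjugating enzyme, read 2205 and 1867 in TEM4-18, 2589.9 and 2206 in TEM2-5 and 3069.8 and 2450.0 in PC-3, at log2 differences of -0.43 ± 0.15 (adjusted p = 0.0608) in TEM4-18 and -0.19 ± 0.15 (adjusted p = 0.437) in TEM2-5. USP18, which also restrains signalling at the type I interferon receptor, read 738 and 513 in TEM4-18, 853 and 463 in TEM2-5 and 936 and 1131 in PC-3. It did not pass in either line, at -0.69 ± 0.28 (adjusted p = 0.0935) in TEM4-18 and -0.66 ± 0.28 (adjusted p = 0.136) in TEM2-5. USP18 passed in TEM4-18 without TEM2-5 replicate 2 (adjusted p = 0.0468) and in TEM2-5 without TEM2-5 replicate 1 (0.0426), where its log2 difference was -1.07. UBE2L6 passed in TEM4-18 without PC-3 replicate 2 (adjusted p = 0.0360).

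Of the sensors, IFIH1 and IFI16 were tested, and DHX58 was below the filter. IFIH1, also called MDA5, recognises long double-stranded RNA in the cytosol and starts interferon transcription. Its signals were 158 and 98.8 in TEM4-18, 359.9 and 418 in TEM2-5 and 1876 and 1372 in PC-3. The 3 lines did not overlap, and both TEM4-18 arrays were below the filter level. The log2 difference of IFIH1 was -3.22 ± 0.27 (adjusted p = 1.29e-05) in TEM4-18 and -1.91 ± 0.27 (adjusted p = 0.000907) in TEM2-5, where its mean was 4.18-fold lower than in PC-3. IFI16, a sensor of nuclear and cytosolic DNA, read 3257 and 3226 in TEM4-18, 4041 and 4043 in TEM2-5 and 3542 and 3319 in PC-3. It did not pass in either line, with log2 differences of -0.08 (95% interval -0.30 to 0.14) in TEM4-18 and 0.23 (95% interval 0.01 to 0.46) in TEM2-5, whose arrays lay above PC-3 (adjusted p = 0.149).

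PARP9 and DTX3L form a complex that ADP-ribosylates ubiquitin and modifies histones, and PARP14 is a related mono-ADP-ribosyltransferase. PARP9 read 1410.3 and 1119.7 in TEM4-18, 1615 and 1516 in TEM2-5 and 2773 and 2090.3 in PC-3 and fell in both lines, at log2 differences of -0.91 ± 0.17 (adjusted p = 0.0026) in TEM4-18 and -0.61 ± 0.17 (adjusted p = 0.0337) in TEM2-5. Its TEM2-5 call was lost without TEM2-5 replicate 1 (adjusted p = 0.103), TEM2-5 replicate 2 (0.157) or PC-3 replicate 1 (0.204). DTX3L read 3073 and 2933 in TEM4-18, 3794 and 3225 in TEM2-5 and 4462 and 4429.5 in PC-3, which passed in TEM4-18 at -0.56 ± 0.11 (adjusted p = 0.00406) and not in TEM2-5 at -0.34 ± 0.11 (adjusted p = 0.0631). PARP14 read 708 and 869 in TEM4-18, 583 and 729 in TEM2-5 and 933 and 925 in PC-3 and did not pass, with log2 differences of -0.23 ± 0.19 (adjusted p = 0.434) in TEM4-18 and -0.48 ± 0.19 (adjusted p = 0.121) in TEM2-5.

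Among the transcriptional regulators, IRF9 and IRF7 fell in both lines and IRF1 did not pass in either. IRF9 is the DNA-binding subunit of ISGF3. It read 1128 and 892 in TEM4-18, 1739.7 and 1481 in TEM2-5 and 3649 and 3218 in PC-3, with every TEM4-18 array below every TEM2-5 array and those below PC-3. The mean was 3.4-fold lower in TEM4-18 and 2.13-fold lower in TEM2-5, at log2 differences of -1.72 ± 0.15 (adjusted p = 2.14e-05) and -1.07 ± 0.15 (adjusted p = 0.00109). IRF7, which drives the amplifying phase of type I interferon transcription, read 3615 and 3469.6 in TEM4-18, 4009 and 3408 in TEM2-5 and 6177 and 5911 in PC-3. The TEM lines overlapped each other and lay below PC-3, with log2 differences of -0.76 ± 0.11 (adjusted p = 0.000478) in TEM4-18 and -0.70 ± 0.11 (adjusted p = 0.00161) in TEM2-5. IRF1, which responds mainly to type II interferon, read 1125 and 869.9 in TEM4-18, 1126 and 1123 in TEM2-5 and 1069 and 1222 in PC-3. The log2 differences were -0.20 (95% interval -0.58 to 0.18) in TEM4-18 and -0.02 (95% interval -0.40 to 0.36) in TEM2-5. The other IRF1 probe set read 512 and 128 in TEM4-18, 499 and 719 in TEM2-5 and 678 and 646 in PC-3. It was not called either, at -1.16 ± 0.44 (adjusted p = 0.0755) in TEM4-18 and -0.13 ± 0.44 (0.882) in TEM2-5.

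The guanylate-binding proteins are GTPases that act on intracellular pathogens and respond strongly to type II interferon. They were the subgroup with rising members. GBP2 read 544 and 593 in TEM4-18, 583 and 496 in TEM2-5 and 304 and 191 in PC-3, and every TEM array lay above both PC-3 arrays. The mean was 2.3-fold higher in TEM4-18 and 2.18-fold higher in TEM2-5, with log2 differences of 1.08 ± 0.27 (adjusted p = 0.0134) and 1.01 ± 0.27 (adjusted p = 0.028). The call in TEM4-18 was lost without TEM4-18 replicate 2 (adjusted p = 0.0784) or PC-3 replicate 2 (0.0705). The call in TEM2-5 was lost without TEM2-5 replicate 1 (adjusted p = 0.164), TEM2-5 replicate 2 (0.088) or PC-3 replicate 2 (0.134). The other GBP2 probe set was not called, at 1.06 (adjusted p = 0.0728) in TEM4-18 and 0.87 (0.167) in TEM2-5, so the GBP2 calls depended on the probe set. GBP3 read 7735 and 8393 in TEM4-18, 7081 and 7131 in TEM2-5 and 6418 and 6119.9 in PC-3, a small step between lines with tight replicates. On the log2 scale it differed from PC-3 by 0.36 ± 0.09 (adjusted p = 0.0115) in TEM4-18 and 0.18 ± 0.09 (adjusted p = 0.2) in TEM2-5, and the TEM4-18 call was lost without TEM4-18 replicate 2 (adjusted p = 0.0858) or PC-3 replicate 2 (0.0637).

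GBP1, which coats bacteria and vacuoles, lay below PC-3 in TEM4-18 on its brightest probe set and did not pass. It read 226 and 224 in TEM4-18, 417 and 314 in TEM2-5 and 546 and 380.2 in PC-3, with a log2 difference of -0.88 (95% interval -1.54 to -0.22) in TEM4-18 (adjusted p = 0.0534) and -0.29 (95% interval -0.96 to 0.37) in TEM2-5 (adjusted p = 0.568). The other tested GBP1 probe sets gave log2 differences of -1.13 (adjusted p = 0.0397) and -1.06 (0.0286) in TEM4-18, so its call depended on the probe set. The 3 genes lie side by side on chromosome 1, in the order GBP3, GBP1, GBP2.

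**Figure D3:**
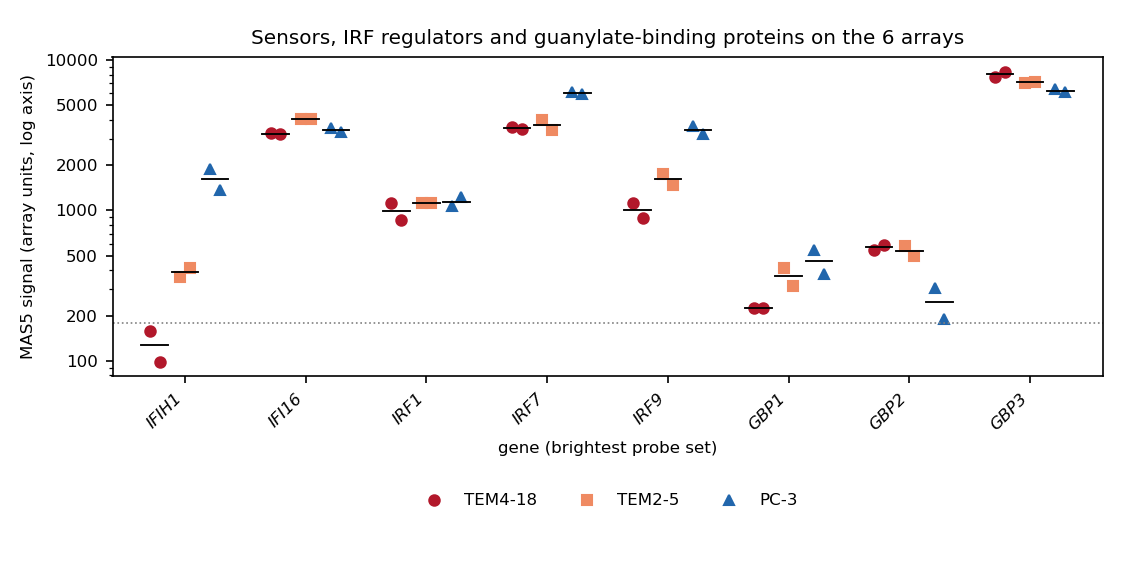
MAS5 signals (array units, log axis) of the tested sensors, IRF regulators and guanylate-binding proteins on the 6 arrays, 2 points per line for TEM4-18, TEM2-5 and PC-3, with short bars at the line means; the dotted line is the filter level of 178. IFIH1, IRF7 and IRF9 are highest in PC-3, IFI16 and IRF1, drawn from their brightest probe sets, differ little between lines, and GBP2 is lowest in PC-3.

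The remaining 8 listed genes are strongly induced by interferon but have less settled functions, and 7 were tested. Of these, 5 fell in TEM4-18 and 4 in TEM2-5, with median log2 differences of -1.48 and -0.82. IFI27 encodes a small membrane protein linked to mitochondria and apoptosis. It read 68.8 and 61.7 in TEM4-18, 478 and 179 in TEM2-5 and 3990.0 and 2438 in PC-3. Both TEM4-18 arrays were below the filter level, the TEM2-5 arrays were between, and PC-3 was highest by a wide margin. The mean was 9.79-fold lower in TEM2-5 than in PC-3, and no fold of means is given for TEM4-18, whose mean was below the filter. On the log2 scale the difference was -4.76 ± 0.38 (adjusted p = 9.2e-06) in TEM4-18, the largest fall among the 44 genes, and -3.18 ± 0.38 (adjusted p = 0.000337) in TEM2-5.

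IFI44L and IFI44, adjacent genes on chromosome 1 whose products restrain viral replication, gave similar values. IFI44L read 451 and 299.8 in TEM4-18, 1124 and 741 in TEM2-5 and 2807 and 2015 in PC-3, with log2 differences of -2.53 ± 0.25 (adjusted p = 4.29e-05) in TEM4-18 and -1.33 ± 0.25 (adjusted p = 0.00505) in TEM2-5. IFI44 read 414 and 293 in TEM4-18, 1081 and 652 in TEM2-5 and 1939 and 1583 in PC-3, with log2 differences of -2.17 ± 0.25 (adjusted p = 0.000124) in TEM4-18 and -1.02 ± 0.25 (adjusted p = 0.0203) in TEM2-5. For both genes TEM2-5 replicate 2 was the lower of its pair. The TEM2-5 call of IFI44L was lost without TEM2-5 replicate 2 (adjusted p = 0.0501) and that of IFI44 without TEM2-5 replicate 2 (adjusted p = 0.156) or PC-3 replicate 1 (0.111). Without TEM2-5 replicate 2 the IFI44 difference in TEM2-5 was -0.67.

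IFI6, a mitochondrial and endoplasmic reticulum protein that delays apoptosis, read 619 and 585 in TEM4-18, 1060.0 and 915 in TEM2-5 and 2268 and 1385 in PC-3. It fell in both lines, with log2 differences of -1.48 ± 0.22 (adjusted p = 0.00062) in TEM4-18 and -0.82 ± 0.22 (adjusted p = 0.0285) in TEM2-5. The TEM2-5 call was lost without TEM2-5 replicate 1 (adjusted p = 0.0746), TEM2-5 replicate 2 (0.156) or PC-3 replicate 1 (0.19), and without PC-3 replicate 1 the difference was -0.47. On its brightest probe set SP110, a nuclear body protein, read 955 and 917 in TEM4-18, 1266 and 1324 in TEM2-5 and 1919 and 1662 in PC-3. That probe set passed in TEM4-18 at -0.90 ± 0.14 (adjusted p = 0.00112) and not in TEM2-5 at -0.45 ± 0.14 (adjusted p = 0.0605). The other tested SP110 probe sets were at -0.55 (adjusted p = 0.0299), -0.56 (0.077), -0.60 (0.0904) and -0.63 (0.289) in TEM4-18. The SP110 call in TEM4-18 therefore depended on the probe set. IFI35, a leucine-zipper protein, read 1034 and 721 in TEM4-18, 859.9 and 684 in TEM2-5 and 865 and 785 in PC-3, and LAMP3, a lysosomal membrane protein of mature dendritic cells, read 1869 and 1759 in TEM4-18, 1589.6 and 1288 in TEM2-5 and 1785 and 1459.6 in PC-3. Neither passed, with log2 differences in TEM4-18 of 0.06 for IFI35 and 0.16 for LAMP3, and in TEM2-5 of -0.10 and -0.17.

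The difference between the isolates was tested directly, as TEM4-18 against TEM2-5. Of the 44 genes, 8 were lower in TEM4-18 and 0 were higher, where 2.27% of all tested genes were called lower and 0.494% higher. At an unadjusted p under 0.05, 22 were lower and 1 was higher in limma's test, against 9.21% and 5.66% of all tested genes. The median log2 difference of the 44 was -0.35, against -0.01 over all tested genes. IFIT2 had the largest of the called differences, -1.48 ± 0.18 (adjusted p = 0.00205), and its TEM4-18 signals of 579.8 and 463 lay well below the TEM2-5 signals of 1753 and 1343. IFIH1 followed at -1.31 ± 0.27 (adjusted p = 0.0392) and IFI44L at -1.20 ± 0.25 (adjusted p = 0.0427). OASL was at -1.18 ± 0.17 (adjusted p = 0.00487), IFI44 at -1.16 ± 0.25 (adjusted p = 0.0494) and OAS1 at -1.08 ± 0.23 (adjusted p = 0.0438). IFIT1 was 2.05-fold lower in TEM4-18 than in TEM2-5, at -1.01 ± 0.14 (adjusted p = 0.00521), and IFIT3 1.67-fold lower, at -0.72 ± 0.12 (adjusted p = 0.0107). For all 8 genes both TEM4-18 arrays lay under both TEM2-5 arrays. The same arrays picked these genes, so this order adds no separate support.

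By role, 5 of these 8 were among the 10 IFIT, OAS and MX genes, whose median log2 difference was -0.73. The other called genes were IFIH1, IFI44 and IFI44L. The 3 regulators were not called, at log2 differences of -0.65 ± 0.15 (adjusted p = 0.0716) for IRF9, -0.18 ± 0.17 (adjusted p = 0.759) for IRF1 and -0.06 ± 0.11 (adjusted p = 0.887) for IRF7. The GBP genes were not called either, at -0.58 for GBP1, 0.07 for GBP2 and 0.18 for GBP3. IFI27 had the largest estimate, -1.58 ± 0.38 (adjusted p = 0.0744), and did not pass, and its TEM2-5 arrays were far apart, at 478 and 179. ISG15 was at -0.13 ± 0.09 (adjusted p = 0.665).

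These calls rested on few arrays. Without the mean-variance trend in the fit, 0 of the 44 were called lower or higher, while 20 had an unadjusted p under 0.05 in the lower direction. Only IFIT2 passed whichever single array was left out. IFIT1 was lost without TEM2-5 replicate 1 (adjusted p = 0.0603), OASL without TEM2-5 replicate 1 (adjusted p = 0.0728) and IFIT3 without TEM4-18 replicate 2 (adjusted p = 0.0598) or TEM2-5 replicate 1 (0.129). IFI44L was lost without TEM4-18 replicate 2 (adjusted p = 0.227), TEM2-5 replicate 1 (0.309) or TEM2-5 replicate 2 (0.0524). IFIH1 was lost without TEM4-18 replicate 2 (adjusted p = 0.172), TEM2-5 replicate 1 (0.158), TEM2-5 replicate 2 (0.221), PC-3 replicate 1 (0.0657) or PC-3 replicate 2 (0.0588). IFI44 was lost without TEM4-18 replicate 1 (adjusted p = 0.0565), TEM4-18 replicate 2 (0.255), TEM2-5 replicate 1 (0.353), PC-3 replicate 1 (0.0637) or PC-3 replicate 2 (0.0614). OAS1 was lost without any 1 of the 6 arrays, with adjusted p-values of 0.0715 to 0.240. Without TEM2-5 replicate 1, 1 gene was called, and without TEM4-18 replicate 2, 3 were. Without PC-3 replicate 1, 5 were called, as were 5 without PC-3 replicate 2. Without TEM2-5 replicate 2, MX1 passed at -1.12 (adjusted p = 0.0315) and IFI27 at -2.18 (0.0180).

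**Figure D4:**
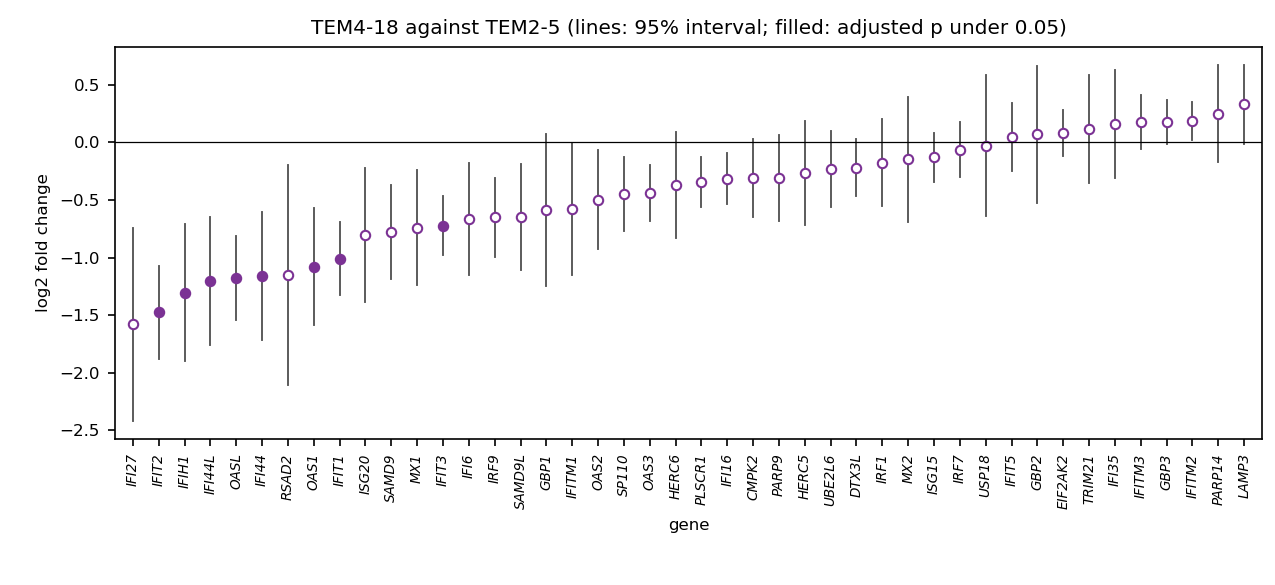
Log2 fold change of TEM4-18 against TEM2-5 for the 44 tested interferon-stimulated genes, ordered by value, with 95% intervals as lines; filled points had an adjusted p under 0.05. The filled points lie between -1.48 (IFIT2) and -0.72 (IFIT3), and none lies above 0.

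Other probe sets of the same genes were set beside the brightest ones. Of the 29 genes called in TEM4-18, 14 had several tested probe sets. In 10 of the 14 every probe set had the same call, and in all 14 every probe set had the same sign. OAS2, OAS3, GBP2 and SP110 had probe sets that were not called. In TEM2-5, 11 of 24 called genes had several tested probe sets, which shared the call in 6 and the sign in 11. IFIT2, IFIT3, OAS2, PARP9 and GBP2 were the exceptions for the call. Between the TEM lines, 5 of the 8 called genes had several tested probe sets, which shared the call in 2 and the sign in 5. The other probe sets of IFIT3 (-0.42, adjusted p = 0.334), OAS1 (-1.36, 0.219) and IFI44 (-1.08, 0.144) were not called there. The calls of these genes between the lines therefore depended on the probe set. Over the 72 tested probe sets of the listed genes, 42 were lower and 2 higher in TEM4-18, against 12.9% and 12.9% of all tested probe sets. In TEM2-5, 29 were lower and 2 higher, against 7.65% and 8.74%. In TEM4-18 against TEM2-5, 11 were lower and 0 higher, against 1.44% and 0.360%.

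Many members are neighbours in the genome, and neighbours did not always share a result. On chromosome 10 the order is IFIT2, IFIT3, IFIT1, IFIT5, with 1 protein-coding gene between IFIT3 and IFIT1. The log2 differences in TEM4-18 along this order were -2.77, -1.42, -2.33 and -0.16, and in TEM2-5 -1.29, -0.69, -1.32 and -0.21. The other IFIT5 probe set gave -0.54 in TEM4-18 and -0.06 in TEM2-5. On chromosome 12, OAS1, OAS3 and OAS2 stood at -2.87, -0.58 and -1.40 in TEM4-18 and -1.79, -0.14 and -0.91 in TEM2-5. The other OAS3 probe set gave -0.39 in TEM4-18 and -0.58 in TEM2-5. The other tested OAS2 probe sets gave -1.61 and -0.32 in TEM4-18 and -0.52 and -0.21 in TEM2-5. In both clusters the values of neighbours in TEM4-18 ranged widely. On chromosome 21, MX1 and MX2 stood at -2.44 and -0.09 in TEM4-18. HERC6 and HERC5 on chromosome 4, SAMD9 and SAMD9L on chromosome 7, PARP9 and DTX3L on chromosome 3, and CMPK2 and RSAD2 on chromosome 2 were adjacent pairs in which both genes fell in TEM4-18.

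The genes that carry the interferon signal were read from a list of 57 other pathway genes, of which 43 were tested. In TEM4-18, 14 of these fell and 6 rose, with a median log2 difference of -0.22, and in TEM2-5 9 fell and 3 rose, with a median of -0.09. Over all tested genes 16.1% fell and 13.3% rose in TEM4-18, and 10.1% fell and 9.04% rose in TEM2-5, so the rising genes of the list were near the background. Of 9 interferon ligands with a probe set, 7 were below the filter. IFNE, an epithelial type I interferon, read 834 and 822 in TEM4-18, 706 and 729 in TEM2-5 and 402 and 296 in PC-3. It was higher in both TEM lines, at log2 differences of 1.15 ± 0.21 (adjusted p = 0.00246) in TEM4-18 and 0.95 ± 0.21 (adjusted p = 0.0116) in TEM2-5. Among 6 receptor chains, IFNLR1, the specific chain of the type III interferon receptor, read 180.0 and 164 in TEM4-18, 411 and 467 in TEM2-5 and 1353 and 1184 in PC-3, with no overlap between lines. Its log2 difference was -2.56 ± 0.23 (adjusted p = 1.93e-05) in TEM4-18 and -1.43 ± 0.23 (adjusted p = 0.00191) in TEM2-5. Between the TEM lines it was -1.13 ± 0.23 (adjusted p = 0.0345). The TEM4-18 mean of IFNLR1 was below the filter level.

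IFNGR1, the ligand-binding chain of the type II receptor, read 2885 and 2711 in TEM4-18, 3038 and 3222 in TEM2-5 and 4294 and 4801 in PC-3 and fell in both lines, at -0.69 ± 0.11 (adjusted p = 0.000987) in TEM4-18 and -0.53 ± 0.11 (adjusted p = 0.00805) in TEM2-5. The type I receptor chains read differently. IFNAR1 did not pass, at -0.27 in TEM4-18 and 0.02 in TEM2-5, while IFNAR2 was higher in TEM4-18, at 0.51 ± 0.12 (adjusted p = 0.0112), and at 0.18 ± 0.12 (adjusted p = 0.37) in TEM2-5. The kinase gene TYK2 rose in both lines, at 0.74 ± 0.10 (adjusted p = 0.000283) in TEM4-18 and 0.57 ± 0.10 (adjusted p = 0.00286) in TEM2-5, and JAK1 did not pass, at -0.08 and 0.04. Of 6 tested negative regulators, 1 fell and 2 rose in TEM4-18, and 0 fell and 1 rose in TEM2-5, beside the all-gene shares given above. SOCS3, an inhibitor of the JAK kinases, read 3216 and 4108 in TEM4-18, 3029 and 3469 in TEM2-5 and 1679 and 1563 in PC-3. It rose by 2.26-fold in TEM4-18 and 2-fold in TEM2-5, at log2 differences of 1.14 ± 0.14 (adjusted p = 0.000187) and 0.98 ± 0.14 (adjusted p = 0.00103). In TEM4-18, PTPN2 rose, at 0.29 ± 0.09 (adjusted p = 0.0310), and PIAS1 fell, at -0.56 ± 0.13 (0.0109). Neither was called in TEM2-5, and SOCS1, PTPN6 and PTPN11 were not called in either line.

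The promoters were searched on both strands for the ISRE letters given above and for the GAS letters TTCNNNGAA. A promoter entry was found for 38 of the 49 genes, and in these the ISRE letters occurred 42 times, 10 of them overlapping another match. The GAS letters occurred 11 times, 3 of them overlapping ISRE letters. The ISRE letters were present in 24 of the 38 promoters (63.2%), against 996 of all 27305 promoters of the same length (3.65%). The GAS letters were present in 10 of the 38 (26.3%), against 2152 of 27305 (7.88%). By role, 5 of 6 IFIT, OAS and MX promoters held ISRE letters, as did both IFITM and both GBP promoters found in the table. The promoters of IRF1 and IRF9 held GAS letters and no ISRE letters, and IRF7 had no promoter entry.

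ISRE letters were found both in genes that fell and in genes that did not pass. Of 23 genes called lower in TEM4-18 with a promoter entry, 15 held ISRE letters (65.2%), and of 11 that did not pass, 7 did (63.6%). The median log2 difference in TEM4-18 was -0.84 for the 23 tested members with ISRE letters and -1.02 for the 12 without. In TEM2-5 the medians were -0.50 and -0.55. In the stretches printed above, IFIT5 carried upstream matches, as did IFIT1, IFIT3, IFIH1 and IFI27. In TEM4-18 its log2 difference was -0.16 on the brightest probe set and -0.54 on the other, which was called lower. Among the other tested genes, 270 promoters held ISRE letters, and 45 of those genes were lower in TEM4-18 (16.7%) and 27 higher (10%). For the 10652 without the letters, 15.7% were lower and 14% higher. A match to these letters is not evidence of a bound site, and a promoter without them may carry the element outside the window or in another spelling.

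**Figure D5:**
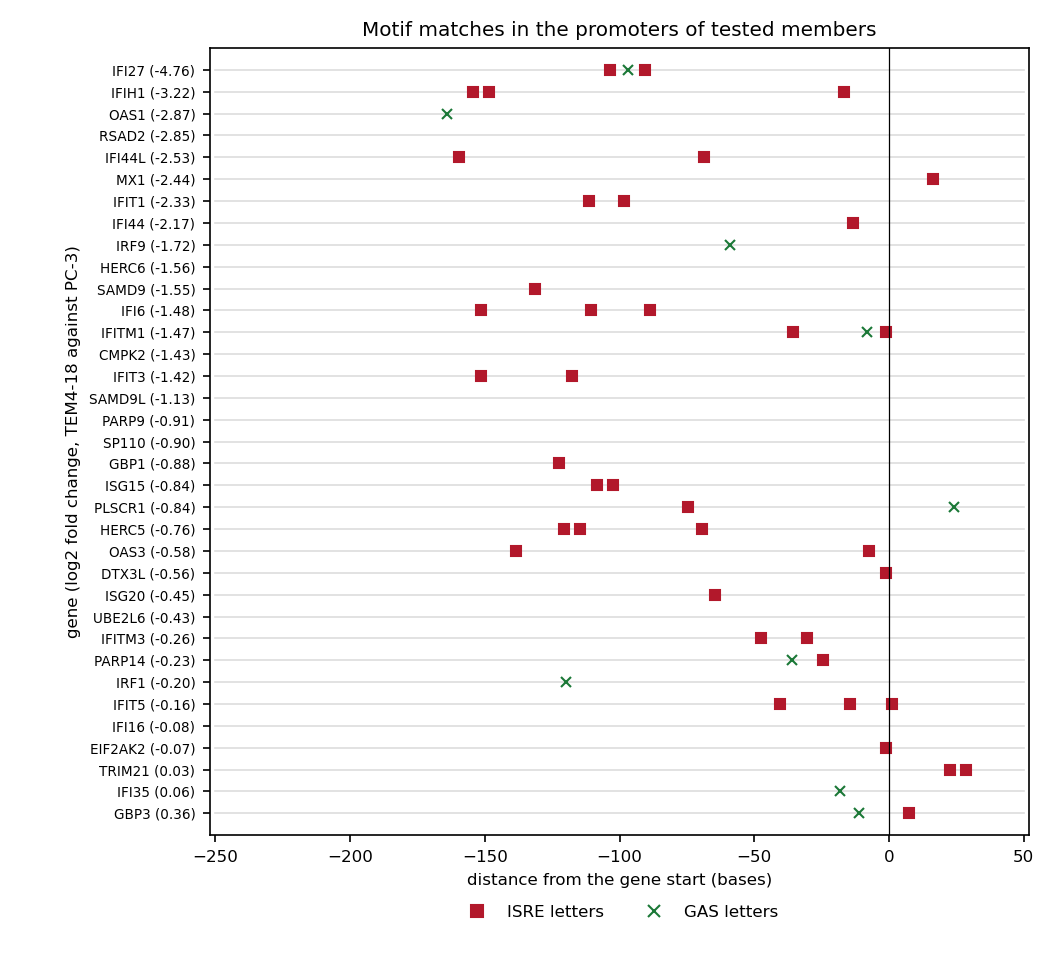
Positions of ISRE letters (squares) and GAS letters (crosses) relative to the gene start, in bases, for tested members with a promoter entry, ordered by their log2 fold change in TEM4-18 against PC-3. The farthest upstream match, in OAS1, starts at -168, and genes with and without ISRE letters occur at both ends of the order.

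Markers of other cells were read in the same arrays, since the TEM lines were isolated from a co-culture. Of 19 endothelial markers, 11 were below the filter, among them CDH5, VWF, TEK, TIE1, ERG and CLDN5. The summed endothelial signal was 7280 and 5797 in TEM4-18, 6024 and 5882 in TEM2-5 and 4202 and 4201 in PC-3. Of the 8 tested, 4 were higher in TEM4-18 (KDR, ESAM, ROBO4 and ENG) and 3 in TEM2-5 (KDR, ROBO4 and ENG). Both lines had 0 lower calls among them. KDR had the largest rise, at log2 differences of 2.40 ± 0.32 (adjusted p = 0.000342) in TEM4-18 and 2.29 ± 0.32 (0.000931) in TEM2-5. Over all tested genes 13.3% were higher and 16.1% lower in TEM4-18, and 9.04% and 10.1% in TEM2-5. The 11 leukocyte markers summed to 1899 and 2125 in TEM4-18, 1918 and 1639 in TEM2-5 and 1673 and 1822 in PC-3, with 7 below the filter. The TEM2-5 sums overlapped those of PC-3, and the TEM4-18 sums lay above them. The 10 fibroblast markers summed to 20479 and 23645 in TEM4-18, 22422 and 25934 in TEM2-5 and 9526 and 11160 in PC-3, mostly from COL1A1, which was higher in both TEM lines. Without COL1A1 they summed to 1617 and 1257 in TEM4-18, 4371 and 4014 in TEM2-5 and 2657 and 2861 in PC-3, lowest in TEM4-18 and highest in TEM2-5. Of the 6 tested fibroblast markers, 1 rose and 2 fell in TEM4-18, and 2 rose and 0 fell in TEM2-5. The shares over all tested genes given above apply to these counts and to those of the next lists. The 5 epithelial markers summed to 68654 and 62194 in TEM4-18, 82589 and 75467 in TEM2-5 and 181499 and 174728 in PC-3, and all 5 were lower in both TEM lines. Of 4 prostate luminal markers with a probe set, 3 were tested, and 2 of these were higher in both TEM lines. TMPRSS2 was at log2 differences of 1.71 in TEM4-18 and 1.51 in TEM2-5, and HOXB13 at 0.69 and 0.44. KLK3 was not called, at 0.23 and 0.07. The part of these differences in the values of the interferon-stimulated genes was not tested.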

How the data were processed

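The authors deposited 1 linear signal intensity per probe set and array, which the submitters' processing notes credit to MAS5. Their 2% trimmed means were 1500.17 to 1500.18 on all 6 arrays, so they were not normalized again. Total RNA came from cells extracted with TRIzol and a column cleanup, per the labels' protocols. Of 54675 probe sets, 62 were controls, and the platform annotation gave 41097 a single symbol, 1801 several and 11777 none. Symbols were looked up by gene ID in RefSeq (GRCh38.p14); 54 probe sets had no match there and 0 symbols needed updating. A constant of 51.8, the 20th percentile of all values, was added before log2. Probe sets were tested where the mean of the 6 arrays exceeded 178, the 40th percentile. Models had 3 line means and 3 residual degrees of freedom (limma 3.58.1 in R 4.3.3, lmFit, eBayes with trend, two-sided), with Benjamini-Hochberg adjustment at 0.05 over 32518 probe sets. The test was checked on simulated data. By the rule for named genes, values on every array were required for up to 4 called members with the largest change in each role, for every regulator, sensor and guanylate-binding protein, and for every member called higher. Values of the remaining members and of further pathway genes were added after their values were seen. The members and lists were chosen with earlier results of these data known. Alternatives changed the constant, filter, normalization, trend, probe set rule and replicate block, or left out 1 array.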

Additional observations from a re-analysis of the deposited data

Results flagged for a closer look

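For 8 genes the difference from PC-3 in TEM4-18 was not the same as in TEM2-5 by a test of the difference itself, in limma with the Benjamini-Hochberg adjustment. The difference between the effects equals the log2 difference of TEM4-18 against TEM2-5. It was -1.48 for IFIT2 (adjusted p = 0.00205), -1.31 for IFIH1 (0.0392), -1.20 for IFI44L (0.0427), -1.18 for OASL (0.00487), -1.16 for IFI44 (0.0494), -1.08 for OAS1 (0.0438), -1.01 for IFIT1 (0.00521) and -0.72 for IFIT3 (0.0107). In each gene both TEM4-18 arrays read lower than both TEM2-5 arrays, which adds no separate support because the same arrays picked the genes. Of the 8 calls, 0 held in every alternative setting that tested the gene. Without the mean-variance trend, 0 of the 44 genes were called between the lines. The calls of IFIT3, OAS1 and IFI44 also depended on the probe set. Each line has 2 arrays, so single arrays were not tested as outliers.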

How the results depend on the processing

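No called gene changed its direction under any of the 14 alternatives. In TEM4-18, 26 of 29 calls held in every alternative that tested the gene, with GBP2, GBP3 and HERC5 the exceptions. In TEM2-5, 13 of 24 did, and in TEM4-18 against TEM2-5, 0 of 8. Without the mean-variance trend, the counts were 1 higher gene in TEM4-18, 13 lower and 0 higher in TEM2-5, and 0 lower between the TEM lines, where limma's unadjusted p was under 0.05 for 20 lower genes. Over all tested genes the trend-free fit called 1363 lower and 1007 higher in TEM4-18, 589 and 461 in TEM2-5, and 78 and 2 between the lines, against 2181 and 1806, 1371 and 1225, and 308 and 67 with the trend. The filter at the 60th percentile left 1 higher gene in TEM4-18 and 0 in TEM2-5. No filter left 0 higher genes in TEM2-5 and 4 lower between the lines. Averaging probe sets gave 2 higher genes in TEM2-5. With 4 times the added constant 5 genes were lower between the lines, as were 5 after quantile normalization. With 1 array left out at a time, 0 to 2 genes were higher in TEM4-18, with 0 without TEM4-18 replicate 2 or PC-3 replicate 2. In TEM2-5, 14 to 23 were lower, with 14 without TEM2-5 replicate 2 and 15 without PC-3 replicate 1, and 0 to 1 were higher, with 0 without TEM2-5 replicate 1, TEM2-5 replicate 2 or PC-3 replicate 2. Between the lines 1 to 7 were lower, with 1 without TEM2-5 replicate 1, 3 without TEM4-18 replicate 2, and 5 without PC-3 replicate 1 or PC-3 replicate 2. Over all tested genes, lower calls in TEM2-5 came to 801 without TEM2-5 replicate 1, 766 without TEM2-5 replicate 2, 907 without PC-3 replicate 1 and 777 without PC-3 replicate 2, and higher calls to 703 and 686 without TEM2-5 replicate 1 and 2. Between the lines, all tested genes gave 205, 136 and 165 lower calls without TEM4-18 replicate 2, TEM2-5 replicate 1 and TEM2-5 replicate 2, and 176 lower and 25 higher with no filter. Higher calls there were 21 and 8 without TEM4-18 replicate 1 and 2, and 16 and 11 without TEM2-5 replicate 1 and 2. The causes of these changes were not tested.

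Called estimates that moved by over 1.5 times through a setting other than a left-out array were RSAD2 in TEM4-18, at -1.87 with 4 times the constant, and OAS2 in TEM2-5, at -0.54 with probe sets averaged. Between the lines they were IFIH1, at -0.83 with 4 times the constant, and IFIT2, at -2.26 with probe sets averaged. Arrays with the same replicate number deviated together only weakly from their line means, at correlations of 0.0649, 0.0827 and 0.0968, so the numbers were not taken to pair the arrays. With the replicate number as a block, 29 genes were lower and 2 higher in TEM4-18, 25 and 1 in TEM2-5, and 11 and 0 between the lines, where 126 of all tested genes were higher. Between the lines the block added IRF9 at -0.65 (adjusted p = 0.0218), SAMD9 at -0.78 (0.0330) and IFI27 at -1.58 (0.02), and it removed no call of a listed gene. Low MAS5 signals are noisy, and the 2 arrays of each line limit what these tests can show.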

Other observations

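Antigen presentation genes, many of which are also induced by interferon, were measured on the same arrays. Of 11 tested genes of MHC class I and peptide loading, 6 fell in TEM4-18, 3 fell in TEM2-5 and 0 rose. Over all tested genes 16.1% were lower in TEM4-18 and 10.1% in TEM2-5. HLA-B, a classical class I heavy chain, read 4888 and 5246 in TEM4-18, 9502 and 7831 in TEM2-5 and 14367 and 14200.5 in PC-3. Its log2 difference was -1.49 ± 0.10 (adjusted p = 3.26e-06) in TEM4-18, -0.72 ± 0.10 (adjusted p = 0.000907) in TEM2-5 and -0.76 ± 0.10 (adjusted p = 0.00321) between TEM4-18 and TEM2-5. HLA-C read 6364 and 5784 in TEM4-18, 10518 and 9751 in TEM2-5 and 16048 and 15883 in PC-3, with log2 differences of -1.39 ± 0.08 (adjusted p = 1.39e-06) in TEM4-18, -0.65 ± 0.08 (adjusted p = 0.000561) in TEM2-5 and -0.73 ± 0.08 (adjusted p = 0.00129) between them. Both probe sets can match several HLA genes, which are near-identical copies, so the values may be shared. B2M, the light chain, fell by a smaller amount in TEM4-18, at -0.28 ± 0.06 (adjusted p = 0.00581), and was at -0.14 ± 0.06 (adjusted p = 0.154) in TEM2-5. The peptide transporter gene TAP1 did not pass, at -0.38 ± 0.15 (adjusted p = 0.0892) in TEM4-18 and -0.38 ± 0.15 (adjusted p = 0.11) in TEM2-5.

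Of 14 tested genes that lead to interferon transcription, 5 fell and 1 rose in TEM4-18, and 4 fell and 0 rose in TEM2-5, beside the same shares over all tested genes for falls and 13.3% and 9.04% for rises. MAVS, the mitochondrial adaptor downstream of IFIH1, was at -0.35 ± 0.09 (adjusted p = 0.0145) in TEM4-18 and -0.40 ± 0.09 (adjusted p = 0.0117) in TEM2-5. TBK1, a kinase that activates IRF3 and IRF7, was at -0.39 ± 0.11 (adjusted p = 0.0211) in TEM4-18 and -0.42 ± 0.11 (adjusted p = 0.0231) in TEM2-5. IRF8 read 341 and 293 in TEM4-18, 251 and 289 in TEM2-5 and 123 and 30.0 in PC-3. It rose in TEM4-18, at 1.62 ± 0.46 (adjusted p = 0.0254), while in TEM2-5 it was at 1.42 ± 0.46 (adjusted p = 0.0609). The PC-3 arrays were below the filter level and far apart, so IRF8 passed the filter through the TEM lines. Its differences from PC-3 therefore rest on low, noisy signals. Of the 4 listed genes below the filter, BST2, which encodes tetherin, read 47.4 and 33.5 in TEM4-18, 28.7 and 50.02 in TEM2-5 and 115 and 94.0 in PC-3.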
